A study of Mus musculus with 12 samples.

Results

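Bulk RNA-seq of undifferentiated spermatogonia (A_undiff) from mice treated with Win18446 was compared between the genotypes labelled PRC1cKO and PRC1ctrl. These are 4 of the 12 libraries of the series, 2 of each genotype. The genes tested were chosen by level alone, as those with a level of at least 1 TPM (transcripts per 1e+06, a length-corrected share of a library's RNA) in at least 2 of these 4 libraries, which kept 16521 of the 55385 genes in the table. The PRC1cKO mice were Ring1-/-, Rnf2 F/-, Ddx4-Cre, and the PRC1ctrl mice were Ring1-/-, Rnf2 F/+, Ddx4-Cre littermates on a mixed background (C57BL/6 X FVB/NJ), so that both genotypes lacked Ring1 and carried the same Cre. Ddx4-Cre acts in germ cells and leaves the floxed allele in place in the somatic cells of the testis. Males entered treatment at 1 month of age and were given about 30 daily subcutaneous injections of 40 μg/μl Win18446 in 50 μl DMSO, and testes were taken 24 h after the last one. A_undiff were sorted as E-Cadherin+ CD9 high KIT- cells, and each library was made from a single pool of sorted cells. The labels do not say how many animals each pool held, so the p-values below measure the spread between pools. The other libraries used here for reference were A_undiff and KIT+ differentiating spermatogonia (A_diff) of untreated wild-type (WT) C57BL/6 mice, prepared with the same stranded mRNA kit, and A_undiff of both PRC1 genotypes at 2 mo without treatment, prepared by Smart-Seq2.

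Polycomb repressive complex 1 (PRC1) is a ubiquitin ligase whose catalytic subunit is either RING1 or RNF2. It ubiquitinates histone H2A at target genes and acts together with PRC2, which methylates H3K27, to keep developmental genes silent in cells where they do not belong. Win18446 inhibits the aldehyde dehydrogenases that make retinoic acid in the testis. Because retinoic acid drives A_undiff to become KIT+ differentiating spermatogonia, the compound holds spermatogenesis at the undifferentiated stage. The comparison asks which genes differed with the PRC1 genotype while that signal was blocked.

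The deposited TPM values of the deleted genes matched the labels only in part. Ring1 lay at 0.04 and 0.14 TPM in the PRC1ctrl libraries and at 0.03 and 0.25 TPM in the PRC1cKO libraries, against 8.61 to 19.9 TPM in the WT libraries. Rnf2 was at 78.1 and 67.2 TPM in the libraries labelled PRC1ctrl and at 86.2 and 93.1 TPM in those labelled PRC1cKO. Libraries labelled PRC1cKO did not have less of it, with a log2 fold change of 0.30 ± 0.12 (standard error) and an adjusted p of 0.107 in limma. With scaling it was higher in these libraries (0.51, adjusted p = 0.0237), as it was with length correction (0.51, adjusted p = 0.029), both short of the fold threshold. A TPM value per gene does not separate transcripts with and without the floxed exons, so it does not test the deletion, and the genotypes are used below as names of the labels.

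The sorted fraction carried its markers. Cdh1, which encodes E-Cadherin, was at 27.6 to 28.0 TPM in PRC1ctrl and at 26.9 and 30.9 TPM in PRC1cKO, and Cd9 was between 122 and 138 TPM in all 4 libraries. Germ cell markers such as Ddx4 (224 to 307 TPM) were high in every library. None of the 12 markers of that list was called, 9 had both PRC1cKO libraries below both PRC1ctrl libraries, where 49.3% of all genes did, and their sum was 2782 and 2856 TPM in PRC1ctrl and 2445 and 2539 TPM in PRC1cKO. The summed level of 15 Sertoli cell markers was 230 to 346 TPM in PRC1ctrl and 243 to 370 TPM in PRC1cKO. Genes at 1 TPM or more numbered 16537 and 16599 in PRC1ctrl and 15098 and 15208 in PRC1cKO. The 50 highest genes took up 24.0% and 23.6% of the TPM in PRC1ctrl and 28.7% and 25.4% in PRC1cKO. Mitochondrial genes took up 5.13% to 6.69%. The part of these differences between the genotypes in the calls below was not tested. Replicates correlated at Pearson's r of 0.977 and 0.983 across genes, above the 0.941 to 0.950 between genotypes. In such bulk libraries, fewer cells of a type and less RNA per cell cannot be told apart.

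Kit, Esx1, Dmrtb1 and Tbx1 mark the step from A_undiff to A_diff. Kit encodes the receptor for stem cell factor whose absence defines the sort gate, Esx1 is an X-linked homeobox gene of spermatogenic cells, Dmrtb1 (DMRT6) is a DM-domain factor of late spermatogonia, and Tbx1 is a T-box factor better known from the pharyngeal region of the embryo. Their upstream windows are shown because these genes moved together in the comparison. The sequences are the 250 bases before the outermost RefSeq start (GRCm38.p6), read on the gene's strand, and capitals mark CG dinucleotides. The Kit window (chr5:75574737-75574915, plus strand) was trimmed where it entered the GENCODE gene and shows 179 bases. The windows of Esx1 (chrX:137120327-137120576), Dmrtb1 (chr4:107684231-107684480) and Tbx1 (chr16:18590672-18590921) are on the minus strand and overlap no annotated exon. That of Esx1 lies inside the longer GENCODE gene (137115397 to 137122083).
Kit: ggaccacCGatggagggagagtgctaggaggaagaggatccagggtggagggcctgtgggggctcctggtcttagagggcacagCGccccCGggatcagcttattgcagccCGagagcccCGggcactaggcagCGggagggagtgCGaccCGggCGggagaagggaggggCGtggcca
Esx1: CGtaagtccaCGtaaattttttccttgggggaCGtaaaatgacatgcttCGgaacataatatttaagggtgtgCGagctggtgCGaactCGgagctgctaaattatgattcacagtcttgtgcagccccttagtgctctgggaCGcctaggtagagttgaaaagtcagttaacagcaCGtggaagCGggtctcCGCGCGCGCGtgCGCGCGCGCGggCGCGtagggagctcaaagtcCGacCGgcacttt
Dmrtb1: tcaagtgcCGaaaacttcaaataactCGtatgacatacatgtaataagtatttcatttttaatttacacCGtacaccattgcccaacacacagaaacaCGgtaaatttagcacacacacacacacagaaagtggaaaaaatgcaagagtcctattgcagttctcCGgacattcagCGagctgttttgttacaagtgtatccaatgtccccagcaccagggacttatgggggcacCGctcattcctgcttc
Tbx1: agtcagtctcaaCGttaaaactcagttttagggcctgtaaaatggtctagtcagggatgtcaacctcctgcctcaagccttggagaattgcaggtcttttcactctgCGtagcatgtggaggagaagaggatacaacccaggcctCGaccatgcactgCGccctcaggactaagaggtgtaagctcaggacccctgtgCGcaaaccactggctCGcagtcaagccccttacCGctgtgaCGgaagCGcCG
The full windows of 250 bases held 17 CG in Kit, 24 in Esx1, 7 in Dmrtb1 and 10 in Tbx1, against a median of 6 (quartiles 2 and 16) over 27025 RefSeq windows of the same length. The share of all windows with at least as many CG was 23.5% for Kit, 11.7% for Esx1, 46.6% for Dmrtb1 and 38.2% for Tbx1. The hexamer AGGTCA, a core motif of retinoic acid receptor sites, was searched on both strands. It was in none of these 4 windows and in 13.8% of all windows, which describes the letters of the windows and nothing further.

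All 4 markers were higher in PRC1cKO. Kit was at 6.48 and 8.15 TPM in PRC1ctrl and at 20.4 and 22.0 TPM in PRC1cKO (log2 fold change 1.42 ± 0.16, adjusted p = 0.00263, limma). Esx1 was at 19.6 and 25.5 TPM in PRC1ctrl and at 58.3 and 61.3 TPM in PRC1cKO (1.38 ± 0.15, adjusted p = 0.00263). For both genes, each PRC1cKO library exceeded each PRC1ctrl library by more than the distance between replicates. Dmrtb1 was lower in level, at 1.99 and 2.68 TPM in PRC1ctrl and at 11.8 and 7.65 TPM in PRC1cKO (1.66 ± 0.23, adjusted p = 0.0041). Tbx1 had the largest change of the 4, from 1.52 and 2.72 TPM to 15.6 and 16.5 TPM (2.48 ± 0.22, adjusted p = 0.00178). The groups did not overlap for any of them, as was the case for 20.1% of all tested genes in this direction. With 2 libraries per group the smallest two-sided p of an exact permutation test on 1 gene is 0.333, so these calls rest on the variance that limma shares across genes.

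The calls of these 4 genes did not depend on scaling or on a single library. With each library scaled by the median ratio of its genes (median-of-ratios scaling), the log2 fold changes were 1.61 for Kit, 1.58 for Esx1, 1.83 for Dmrtb1 and 2.64 for Tbx1. Leaving out any 1 library kept them between 1.20 (Esx1) and 2.76 (Tbx1), with adjusted p-values of at most 0.0483.

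**Figure D1:**
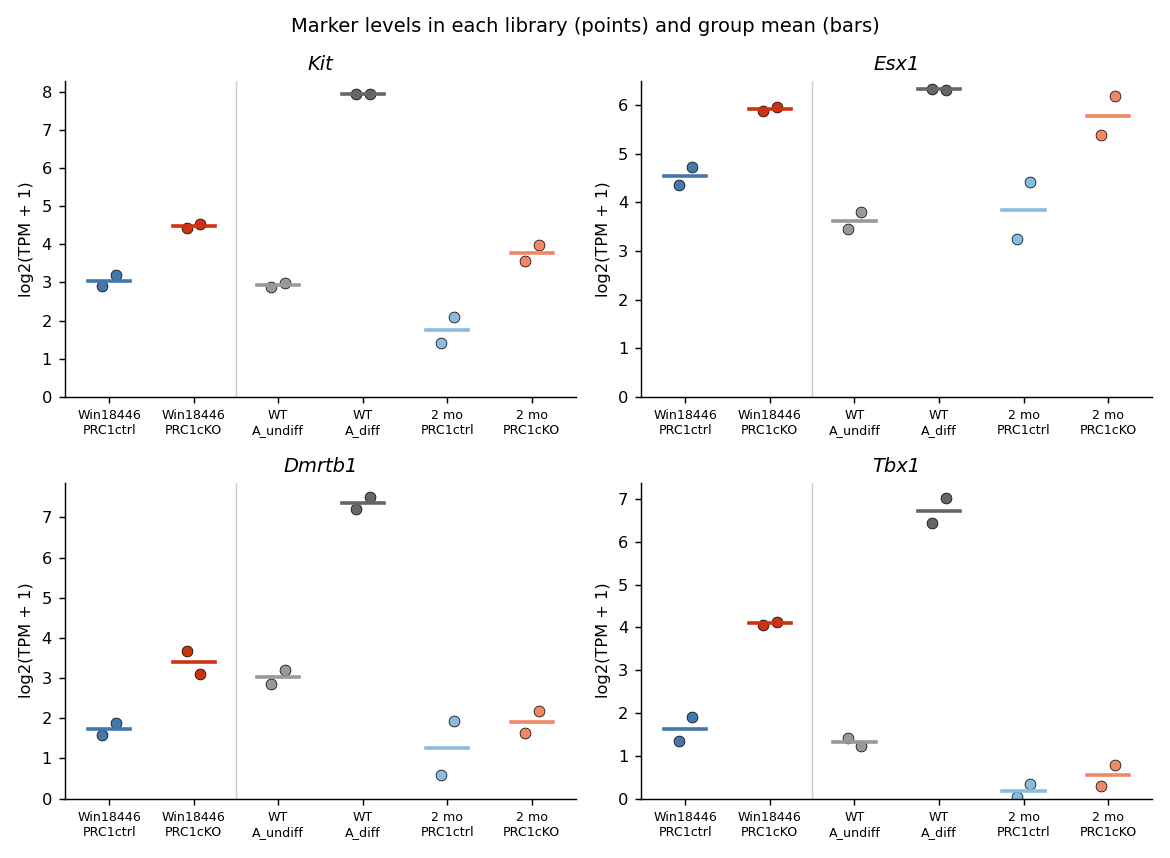
Levels of Kit, Esx1, Dmrtb1 and Tbx1 as log2(TPM + 1) on the vertical axis in the 6 groups of the series, with 1 point per library and a bar at the group mean. After Win18446 both PRC1cKO points lie above both PRC1ctrl points for each gene, and the WT A_diff points are higher still.

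In WT A_diff the same 4 genes were at higher levels than in the PRC1cKO cells, Esx1 only slightly so. Kit reached 247 and 245 TPM in WT A_diff from 6.38 and 6.96 TPM in WT A_undiff. Tbx1 reached 85.0 and 130 TPM from 1.66 and 1.34 TPM, and Dmrtb1 reached 147 and 182 TPM from 6.25 and 8.26 TPM. Esx1 came closest, with 80.2 and 78.4 TPM in WT A_diff against 9.90 and 13.0 TPM in WT A_undiff. Strain, treatment and genotype all differ between these groups and the PRC1 libraries, so the levels are set side by side and were not tested. Within WT, the log2 fold change was 5.01 for Kit, 5.41 for Tbx1, 4.33 for Dmrtb1 and 2.70 for Esx1, with adjusted p-values of 0.000205 to 0.000724 in limma.

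At 2 mo without Win18446, Kit was at 1.64 and 3.30 TPM in PRC1ctrl and at 10.7 and 14.9 TPM in PRC1cKO, and Esx1 was at 8.47 and 20.6 TPM and at 40.7 and 71.8 TPM. Tbx1 stayed under 1 TPM in all of these libraries, at 0.02 and 0.26 TPM in PRC1ctrl and at 0.23 and 0.72 TPM in PRC1cKO. The difference between the change after Win18446 and that at 2 mo was tested as an interaction term in limma. It was 2.12 ± 0.40 for Tbx1 (adjusted p = 0.028), where 2.76% of all genes tested were called in this direction and 4.98% in the other, and leaving out either PRC1cKO replicate at 2 mo, or any of the 4 libraries after treatment, gave values of 1.84 to 2.40 with adjusted p-values of 0.0564 to 0.116. With a pseudocount of 0.1 it was 1.59 and not called (adjusted p = 0.396), and since Tbx1 was under 1 TPM at 2 mo, the scale holds its change there near 0. For Kit (-0.60, adjusted p = 0.447), Esx1 (-0.57, adjusted p = 0.61) and Dmrtb1 (1.02, adjusted p = 0.388) the interaction did not pass the test. Treatment and library kit cannot be told apart in this comparison.

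Of 12 markers of differentiating spermatogonia, 3 were called higher and none lower, where 1.27% of all tested genes were called higher and 10.9% lower. These 3 were Kit, Esx1 and Dmrtb1, already given above, so their count is no separate evidence. No other member was called as deposited. The list's median log2 fold change was 0.60, beside -0.19 over all tested genes, and 8 of its members had both PRC1cKO libraries above both PRC1ctrl libraries, as 20.1% of all genes did. Crabp1, a retinoic acid binding protein, was at 146 and 172 TPM in PRC1ctrl and at 228 and 273 TPM in PRC1cKO, a log2 fold change of 0.65 that missed the fold threshold. The same held for Rhox13 (0.69) and for the bHLH factor Sohlh2 (0.55). Tcea3, an elongation factor gene, was at 0.99 and passed with scaling, where it was 1.13 and 4 members were called, against 2.03% of all genes called higher and 7.92% lower.

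Stra8, the retinoic acid target that precedes meiosis, was not among the higher genes. It was at 10.7 and 12.4 TPM in PRC1ctrl and at 7.91 and 7.90 TPM in PRC1cKO, a log2 fold change of -0.50 (adjusted p = 0.046) that did not pass the fold threshold. In WT cells Stra8 was 3.38 higher in A_diff on the same scale. Dnmt3b, a DNA methyltransferase that was also higher in WT A_diff (1.48), was at 52.6 and 61.7 TPM in PRC1ctrl and at 51.7 and 56.8 TPM in PRC1cKO. Its difference of -0.07 turned to 0.14 with scaling.

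Of the 25 genes in the retinoic acid pathway list, 18 were tested and none was called, while 7 of the 18 were called higher in WT A_diff, where 11.1% of all genes tested were. Cyp26b1, which degrades retinoic acid, was at 1.99 and 1.5 TPM in PRC1ctrl and at 4.42 and 3.81 TPM in PRC1cKO. Its log2 fold change of 0.90 became 1.05 with scaling and was then called. Aldh1a2, the enzyme that Win18446 inhibits, was at 50.7 and 48.0 TPM in PRC1ctrl and at 42.1 and 45.9 TPM in PRC1cKO, with a log2 fold change of -0.16 as deposited and 0.04 with scaling. The receptor gene Rarg (-0.66) and Rec8 (-0.64), a meiotic cohesin gene that responds to retinoic acid, did not pass the fold threshold. The median of the tested members was -0.05 as deposited and 0.16 with scaling, so the sign of that median depends on the scaling.

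Markers of A_undiff did not stand out in the comparison. Of 34 listed genes 33 were tested, 1 (3.03%) was called higher and 2 (6.06%) lower, near the 1.27% and 10.9% of all genes, and their median log2 fold change of -0.21 was close to that of all genes and moved to -0.01 with scaling. In WT differentiation 23 of these 33 were called lower, where 9.24% of all genes were. Gfra1, the GDNF receptor of stem cells, was at 14.7 TPM in both PRC1ctrl libraries and at 15.7 and 16.1 TPM in PRC1cKO. Etv5, Id4, Nanos2 and Ret also changed by less than 0.21 in either direction, beside WT changes of -2.65 to -4.05.

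Sall1, a zinc-finger factor, was called lower, from 29.5 and 37.4 TPM to 8.90 and 11.3 TPM (log2 fold change -1.63 ± 0.18, adjusted p = 0.00261, limma), and stayed so with scaling (-1.43). Neurog3, a bHLH gene of late A_undiff, fell from 37.3 and 48.9 TPM to 17.8 and 20.8 TPM (-1.11 ± 0.17, adjusted p = 0.0049). It was not called with scaling (-0.91), without PRC1ctrl replicate 2 (-0.92), without PRC1cKO replicate 1 (-1.0, adjusted p = 0.056) or in the fit over all 12 libraries (adjusted p = 0.212). Pou5f1 (-0.81) and Zbtb16, which encodes PLZF (-0.78), were lower in both PRC1cKO libraries and missed the fold threshold. Shisa6, a marker of a Wnt-restrained subset of A_undiff, was the only member called higher, from 0.34 and 0.28 TPM to 4.39 and 2.47 TPM (1.72 ± 0.24, adjusted p = 0.0041). It was under 1 TPM in both PRC1ctrl libraries and was tested through its PRC1cKO level alone.

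Over all 16521 genes, 210 were higher and 1807 lower in PRC1cKO in limma, with a log2 fold change beyond 1 either way and an adjusted p below 0.05. This imbalance depended on the scaling. Deposited TPM gave a median log2 fold change of -0.19 over all genes, which scaling brought to -0.00. With scaling 335 genes were higher and 1309 lower, so the share of lower genes among the called ones went from 89.6% to 79.6%. All 210 higher genes and 1308 of the lower ones were among those calls. PRC1cKO replicate 1 weighed most on the counts, since without it 125 genes were higher and 1040 lower.

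**Figure D2:**
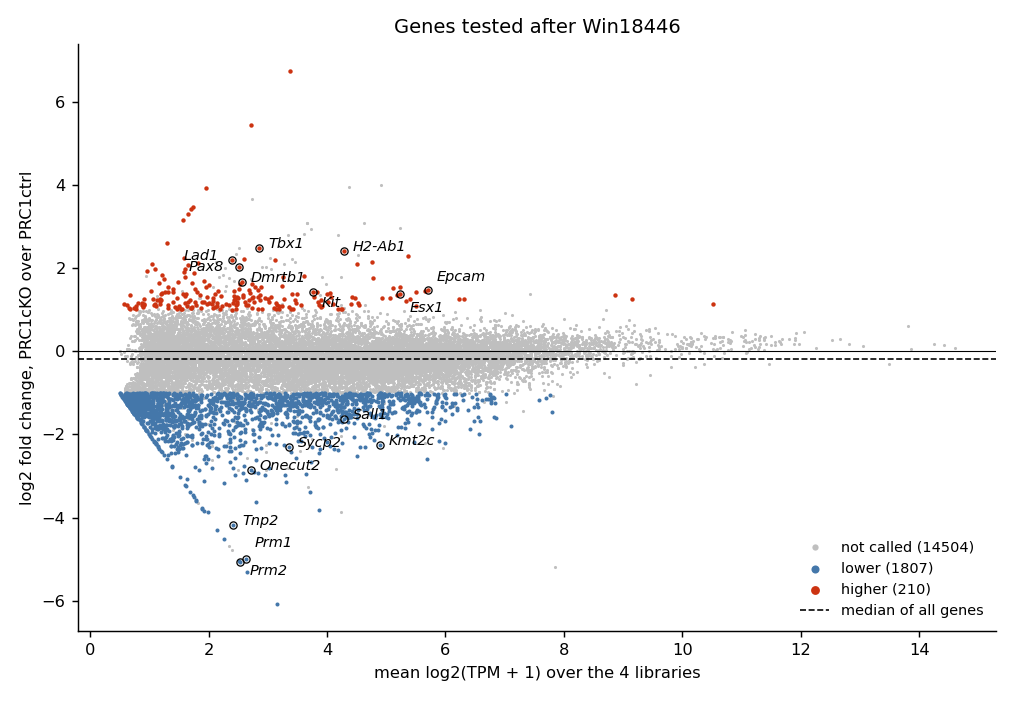
Log2 fold change of PRC1cKO over PRC1ctrl after Win18446 (vertical axis) against the mean log2(TPM + 1) of the 4 libraries (horizontal axis), 1 point per tested gene, with called genes in colour. The 1807 lower genes outnumber the 210 higher ones, the dashed median lies at -0.19, and the named markers are circled.

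The calls also followed transcript length. The length of a gene was taken as that of its longest GENCODE transcript. Among protein-coding genes, the median log2 fold change was 0.16 up to 1000 bases, -0.15 above 2000 and up to 4000 bases, and -0.70 above 8000 bases. In the longest class 30.6% of 748 genes were called lower and 3 genes higher, where 7.77% of all protein-coding genes were lower and 1.25% higher. Within a library, genes above 8000 bases lay 0.28 and 0.44 above the mean of the 4 libraries in PRC1ctrl, and 0.45 and 0.23 below it in PRC1cKO. No such fall was seen from WT A_undiff to A_diff, where the medians of the shortest and longest class were -0.02 and 0.27. At 2 mo without treatment, with another library kit, these medians were 0.03 and 0.17 for PRC1cKO over PRC1ctrl.

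Removing a smooth curve of each library's deviation on transcript length left 399 higher and 1045 lower genes of the 16501 with a length, or 2.42% and 6.33%. Of the genes called as deposited, 208 of the higher and 1045 of the lower were among these. The median of the longest class then was -0.01, with 41 genes higher and 52 lower. In the Win18446 libraries length thus moved with the genotype. For the long genes of chromatin regulation, nuclear RNAs, integrins and cadherins below, the count after this correction is given.

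**Figure D3:**
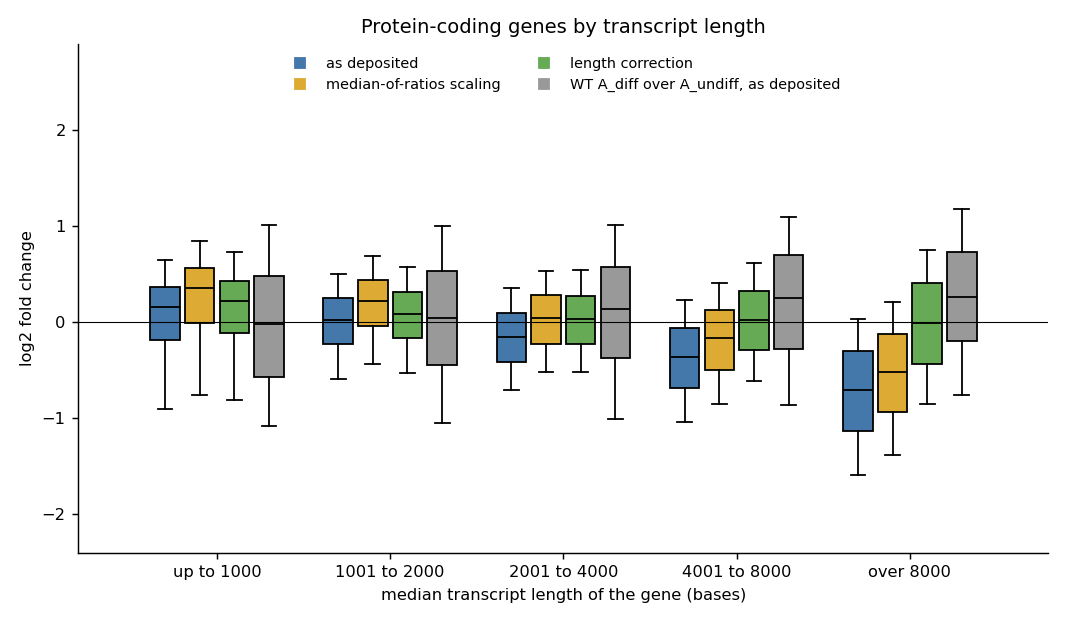
Log2 fold changes of protein-coding genes in 5 classes of transcript length, with boxes for the quartiles, a line at the median and whiskers from the 10th to the 90th percentile. Length is that of the longest GENCODE transcript of a gene, which the axis title names a median. After Win18446 the median falls from 0.16 in the shortest to -0.70 in the longest class as deposited, and from 0.22 to -0.01 after length correction, and WT A_diff over A_undiff shows no fall.

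The 5 protein-coding genes with the largest increases were Tbx1, H2-Ab1, Cd74, Prss50 and Lad1. Prss50, a testis serine protease, rose from 1.92 and 1.72 TPM to 13.2 and 11.1 TPM (log2 fold change 2.22 ± 0.17, adjusted p = 0.00176, limma), and in WT it was 3.21 higher in A_diff. Lad1, which encodes the basement membrane anchor ladinin, rose from 1.22 and 1.74 TPM to 9.41 and 11.2 TPM (2.19 ± 0.19, adjusted p = 0.00178). Both were called with scaling, with length correction and without any single library.

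H2-Ab1 and Cd74 belong to antigen presentation by MHC class II, where Cd74 encodes the invariant chain. H2-Ab1 was at 8.16 and 6.80 TPM in PRC1ctrl and at 61.2 and 31.0 TPM in PRC1cKO (log2 fold change 2.40 ± 0.33, adjusted p = 0.00726, limma). Cd74 was at 19.6 and 15.7 TPM and at 115 and 70.4 TPM (2.29 ± 0.25, adjusted p = 0.00332). H2-Aa (2.14) and H2-Eb1 (2.11) rose with them, so that 4 of the 7 tested MHC class II genes were called, all higher, where 1.27% of all genes were called higher. H2-Ab1 lost its call without PRC1ctrl replicate 2 (2.28, adjusted p = 0.0728), and H2-Aa and H2-Eb1 lost theirs without either PRC1ctrl replicate, with changes of 1.97 to 2.31 and adjusted p-values of 0.0652 to 0.112. In the fit over all 12 libraries, where the groups share 1 estimate of the spread, none of the 4 was called (Cd74 adjusted p = 0.216, H2-Ab1 0.186, H2-Aa 0.126, H2-Eb1 0.0739).

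These are genes of antigen-presenting cells, so the markers of such cells are given beside them. Of 16 macrophage and leukocyte markers 12 were tested, the cytokine gene Il1b was called higher (beside 1.27% of all genes) and none was called lower. Il1b was at 1.61 and 0.98 TPM in PRC1ctrl and at 6.36 and 5 TPM in PRC1cKO (log2 fold change 1.55), and it was not called without PRC1cKO replicate 1 (1.40, adjusted p = 0.0525). The macrophage genes Lyz2 (-0.52) and C1qa (-0.45) were not called. Of the 12 tested, 5 had both PRC1cKO libraries above both PRC1ctrl libraries and 2 had both below, where 20.1% and 49.3% of all genes did. Laptm5 and Tyrobp were among the former. Of the 12, 1 was tested through its PRC1cKO level alone and could only lie above. The summed level of the list was 39.8 to 61.8 TPM in PRC1ctrl and 41.4 to 55.6 TPM in PRC1cKO, while that of MHC class II was 53.2 to 64.1 TPM and 191 to 343 TPM. Of 9 T and NK cell markers 3 were tested, and their list summed to 7.27 and 8.97 TPM in PRC1ctrl and to 12.7 and 14.1 TPM in PRC1cKO. Gzma, a granzyme, was at 1.97 and 1.10 TPM in PRC1ctrl and at 4.93 and 5.37 TPM in PRC1cKO (1.3), a call lost without either PRC1cKO replicate (1.35 and 1.25, adjusted p = 0.06 and 0.0572). Ptprc, the pan-leukocyte CD45 gene, was at 0.24 and 0.18 TPM in PRC1ctrl and at 0.93 and 0.61 TPM in PRC1cKO, under the level needed for testing, and Cd3g and Nkg7 were listed at 0 in all 4 libraries. In WT A_undiff the MHC class II genes summed to 159 and 259 TPM, more than in PRC1ctrl. At 2 mo without treatment these genes summed to 12.9 and 162 TPM in PRC1ctrl and to 187 and 1012 TPM in PRC1cKO. Replicates of 1 genotype were thus far apart there. The part of leukocytes in the MHC class II result was not tested.

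Polycomb complexes are best known for silencing transcription factors of body patterning. Of 39 Hox genes 22 were tested, 2 were called higher and 2 lower (9.09% each) as deposited, beside 1.27% and 10.9% of all genes, and 3 and 2 with scaling, beside 2.03% and 7.92%. The lower share was thus near that of all genes. Hoxa9 rose from 0.42 and 0.43 TPM to 2.33 and 3.12 TPM (log2 fold change 1.38 ± 0.19, adjusted p = 0.0038, limma), and was tested through its PRC1cKO level alone. Its neighbour Hoxa10 rose from 0.63 and 1.26 TPM to 3.84 and 4.06 TPM (1.37 ± 0.22, adjusted p = 0.0054), a call that was lost without PRC1cKO replicate 1 (1.40, adjusted p = 0.0556). Hoxa7, in the same cluster on chromosome 6, was at 0.98 as deposited and was called with scaling (1.15), though 20.4% of its exonic bases overlap a gene on the other strand.

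Both Hox genes called lower were Hoxb genes. Hoxb2 was at 7.86 and 9.13 TPM in PRC1ctrl and at 2.95 and 2.43 TPM in PRC1cKO (log2 fold change -1.36 ± 0.18, adjusted p = 0.0032, limma). Hoxb3 was at 7.35 and 9.26 TPM and at 2.5 and 3.08 TPM (-1.29 ± 0.19, adjusted p = 0.0043), and was not called without PRC1cKO replicate 1 (-1.18, adjusted p = 0.0529). Hoxb2 was not called in the fit over all 12 libraries (adjusted p = 0.213). Both were also lower in WT A_diff, by -2.13 and -1.46. Exons of Hoxb3 and Hoxb2 overlap genes of the other strand over 52.9% and 27.3% of their bases. The strand setting used for the TPM is not given in the sources used here, so the split of reads between these genes and their antisense neighbours is uncertain.

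Among 87 further developmental transcription factors 49 were tested, 6 were called higher and 4 lower, where 1.27% and 10.9% of all genes were, and their median log2 fold change was 0.45. Both PRC1cKO libraries lay above both PRC1ctrl libraries for 30 of them, and below for 9. Over all genes 20.1% lay above and 49.3% below. Of the 49, 5 were tested through their PRC1cKO levels alone and 1 through its PRC1ctrl level alone. The filter set the direction of these genes, which the tallies and the median include. Pax8, a factor of thyroid and kidney, rose from 1.06 and 2.95 TPM to 10.1 and 11.0 TPM (2.01 ± 0.31, adjusted p = 0.0064, limma). Cdx1, a posterior homeobox gene of the intestine, rose from 1.00 and 1.28 TPM to 5.48 and 6.18 TPM (1.68 ± 0.18, adjusted p = 0.0026). Alx4 (1.17), Barx1 (1.11), Irx4 (1.10) and Barx2 (1.01), all homeobox genes, rose by less, and Alx4 and Irx4 were tested through their PRC1cKO levels alone. Without PRC1cKO replicate 1 the calls of Pax8, Alx4 and Barx1 were lost, with changes of 1.03 to 2.07 and adjusted p-values of 0.0552 to 0.0587, and Barx1 was also not called without PRC1ctrl replicate 1 (0.97). Irx4 and Barx2 were called without PRC1ctrl replicate 2 but not without any of the other 3 libraries (0.96 to 1.24 for Irx4 and 0.89 to 1.13 for Barx2 over all 4).

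The factors called lower and described here were already expressed in PRC1ctrl A_undiff. Onecut2 fell from 14.7 and 18.7 TPM to 1.29 and 1.62 TPM, the largest decrease of the list (log2 fold change -2.85 ± 0.19, adjusted p = 0.0014, limma). Six4 fell from 12.2 and 13.6 TPM to 3.33 and 3.16 TPM (-1.71 ± 0.16, adjusted p = 0.0019), and was lower in WT A_diff as well (-3.09). Irx2 fell by less (-1.11), and it was not called without PRC1cKO replicate 1 (-1.0, adjusted p = 0.066), without PRC1ctrl replicate 2 (-0.89), with scaling (-0.91) or with length correction (-0.95). The longest transcript of Onecut2 has 16234 bases, and the gene was at -1.92 after length correction, still called.

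Among signalling genes a few single members were called, where 1.27% of all genes were called higher. Both PRC1cKO libraries lay above both PRC1ctrl libraries for 7 of 9 tested Wnt ligands (median 0.38). They did so for 9 of 15 TGF-beta and BMP ligands (median 0.35), where 20.1% of all genes did. For 2 of each list they lay below, as for 49.3% of all genes. The filter was passed through PRC1cKO alone by 2 Wnt ligands and 1 TGF-beta or BMP ligand, which could only lie above. The listed Wnt ligands summed to 31.4 and 33.6 TPM in PRC1ctrl and to 43.3 and 43.6 TPM in PRC1cKO. Of the 9 Wnt ligands tested, Wnt11 rose from 1.39 and 2.02 TPM to 6.28 and 5.71 TPM (log2 fold change 1.38), and Wnt7b from 1.19 and 1.01 TPM to 3.86 and 4.01 TPM (1.23). Wnt11 was not called without PRC1cKO replicate 1 (1.32, adjusted p = 0.0531), while Wnt7b was called without any single library. Of 11 tested FGF ligands and receptors, Fgf3, tested through its PRC1cKO level alone, was called higher at the edge of the threshold (1.01), and without PRC1ctrl replicate 1, PRC1cKO replicate 1 or PRC1cKO replicate 2 it was not (0.83 to 1.19, adjusted p of 0.0549 to 0.0825). Of 15 tested integrins Itga7 was called higher (1.01), and it was not without PRC1ctrl replicate 1 (0.93), PRC1cKO replicate 1 (1.12, adjusted p = 0.0532) or PRC1cKO replicate 2 (0.89). With scaling 2 integrins were called higher and with length correction 4, beside 2.03% and 2.42% of all genes, and with the correction their median went from 0.15 to 0.75. None of 15 tested TGF-beta and BMP ligands and none of 9 cadherins was called as deposited or with scaling, and with length correction 1 of each was called higher. The 9 tested T-box genes had a median of -0.28, which turned to 0.02 with length correction, so that the increase of Tbx1 was not shared by its family.

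Epithelial and cell junction genes, a list chosen with earlier results of these data known, were called in 1 direction. The share called in this list, as in the other lists, describes it and is no test. Of 26 listed genes 24 were tested, 6 (25%) were called higher and none lower, where 1.27% and 10.9% of all genes were, and the median log2 fold change was 0.44. Epcam, a cell adhesion gene of epithelia and early germ cells, had the highest level and rose from 29.4 and 31.2 TPM to 88.7 and 82.2 TPM (1.47 ± 0.12, adjusted p = 0.0018, limma). The keratin genes Krt7 (0.52 and 1.07 TPM to 4.62 and 6.49 TPM, log2 fold change 1.87) and Krt18 (4.31 and 4.25 TPM to 11.8 and 12.2 TPM, 1.3) rose with it. Krt8 (0.88) and Perp (0.96) were not called as deposited and passed with scaling, at 1.05 and 1.07, which brought the count to 8. Lad1 (2.19), described above, St14 (1.15) and Pkp3 (1.14) made up the 6. Of these, St14 and Pkp3 were not called without PRC1cKO replicate 1. In WT cells Epcam was 1.45 higher and Krt18 1.11 lower in A_diff, so the group did not follow normal differentiation in 1 direction.

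The Rhox cluster of reproductive homeobox genes on the X chromosome was higher in nearly every tested member. All 23 tested genes of the 32 listed had a log2 fold change above 0, in 22 both PRC1cKO libraries exceeded both PRC1ctrl libraries, and 11 (47.8%) were called higher, where 20.1% of all genes had PRC1cKO above and 1.27% were called. The median was 1.00 as deposited and 1.16 with scaling. Of the 23, 2 were tested through their PRC1cKO levels alone, so that these could only lie above. Rhox2a rose from 14.6 and 13.2 TPM to 48.5 and 50.4 TPM (1.76 ± 0.13, adjusted p = 0.0016, limma), Rhox2c from 2.82 and 2.92 TPM to 9.43 and 10 TPM (1.47), and Rhox9 from 4.16 and 3.44 TPM to 9.55 and 10.9 TPM (1.23). These 3 were called without any single library. The other 8 were not called without PRC1cKO replicate 1, among them Rhox4b (1.45, adjusted p = 0.0531) and Rhox2b (1.58, adjusted p = 0.051). The Rhox2 and Rhox4 genes are near-identical tandem copies, so the share of reads that RSEM assigned to each copy is uncertain and they are not independent measurements. In WT differentiation the 23 genes had a median of -0.02, with 6 called higher and 3 lower.

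**Figure D4:**
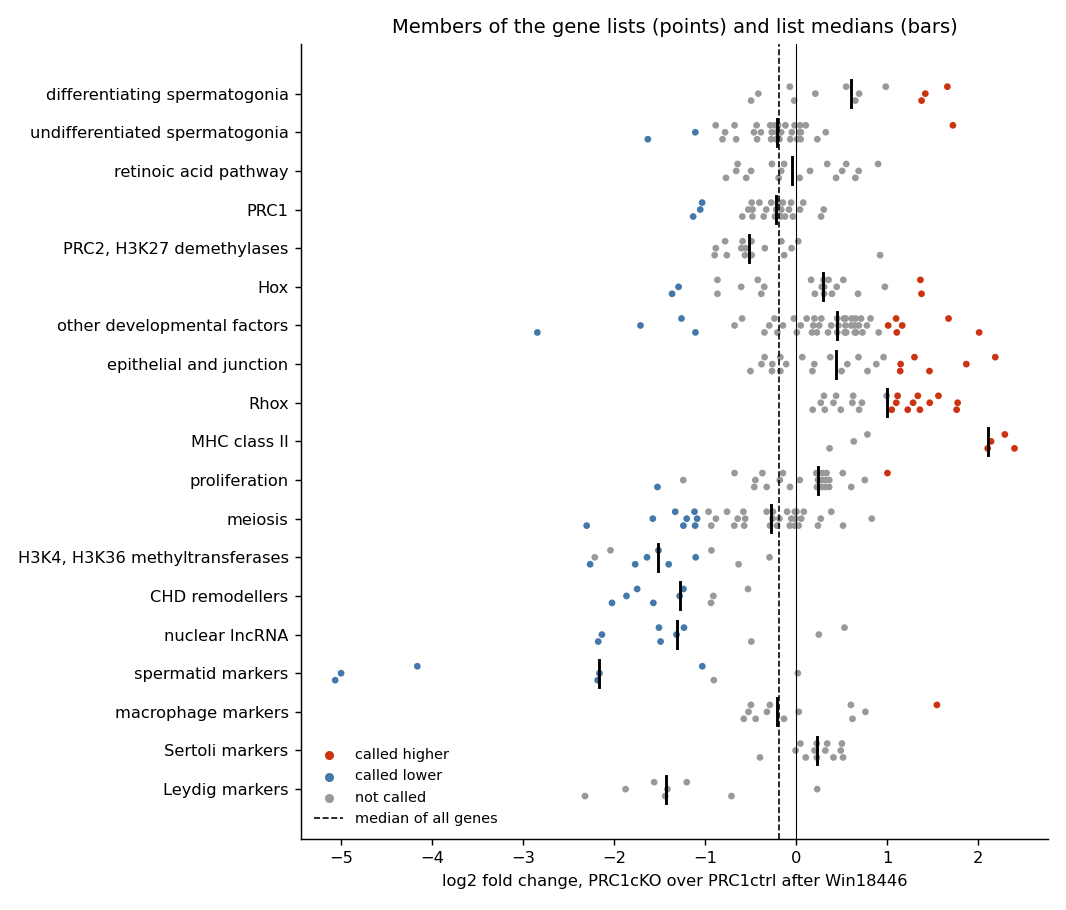
Log2 fold change of PRC1cKO over PRC1ctrl after Win18446 (horizontal axis) for the tested members of 19 gene lists, 1 point per gene, coloured where called, with a bar at each list's median and a dashed line at the median of all genes. The medians of differentiating spermatogonia, Rhox and MHC class II genes lie to the right of the dashed line. Those of methyltransferase, CHD, nuclear lncRNA and spermatid genes lie to its left.

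Subunits of the Polycomb complexes themselves were called about as often as all genes. Of 27 genes of PRC1 and its partners 26 were tested and 3 (11.5%) were called lower, close to the 10.9% of all tested genes, the chromodomain gene Cbx6 (10.4 and 11.4 TPM to 4.89 and 4.56 TPM, log2 fold change -1.05), Phc3 (-1.13) and Mga (-1.03). None of the 3 was called with scaling or with length correction. Cbx6 and Mga also lost the call without PRC1ctrl replicate 2 (-0.99 and -0.92), and Phc3 and Mga without PRC1cKO replicate 1 (-0.98 and -0.85). The list's median of -0.23 moved to -0.02 with scaling and to 0.03 with length correction.

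Of 16 genes of PRC2 and the H3K27 demethylases none was called, and their median was -0.52. The core genes Suz12 (-0.76), Eed (-0.49) and the methyltransferase gene Ezh2 (-0.49) were lower in both PRC1cKO libraries than in both PRC1ctrl libraries, as 12 of the 16 and 49.3% of all tested genes were. Of the 16, 2 had a log2 fold change above 0. Phf19, an accessory subunit, was at 0.91 and 0.81 TPM in PRC1ctrl and 2.79 and 2.28 TPM in PRC1cKO (log2 fold change 0.92). With scaling Phf19 was called higher (1.04). It was tested through its PRC1cKO level alone, so its direction was set by that. The median stayed below 0 with scaling (-0.32) and length correction (-0.29).

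Single cell cycle genes were called. Both PRC1cKO libraries lay above both PRC1ctrl libraries for 16 of 27 proliferation genes and 8 of 19 cyclin and CDK genes. They lay below for 8 proliferation genes and 7 cyclin and CDK genes. Of all genes, 20.1% lay above and 49.3% below. Over all genes 1.27% were called higher and 10.9% lower. The medians of these lists were 0.24 and 0.04, and 0.45 and 0.24 with scaling. None of the 19 cyclin and CDK genes passed, though Ccnb1, which encodes the mitotic cyclin B1, was at 126 and 108 TPM in PRC1ctrl and 169 and 193 TPM in PRC1cKO (log2 fold change 0.63, adjusted p = 0.012, limma). Among the proliferation genes, Rrm2 of nucleotide synthesis was called higher (1.00) and the centromere motor gene Cenpe lower (-1.52). Rrm2 lost its call without PRC1ctrl replicate 1 (0.98) or PRC1cKO replicate 1 (0.86, adjusted p = 0.0604), and Cenpe without PRC1ctrl replicate 2 (-1.46, adjusted p = 0.0542) and with length correction (-0.94). Mki67 lay at 7.98 and 8.78 TPM in PRC1ctrl and at 3.69 and 9.06 TPM in PRC1cKO, where the replicates overlapped. None of 10 CDK inhibitor and RB genes was called, Cdkn2a included (0.14). Of 18 p53 targets Phlda3 was called higher, from 9.88 and 9.60 TPM to 22.7 and 24.4 TPM (1.19), was not called in the fit over all 12 libraries (adjusted p = 0.206), and was 2.52 higher in WT A_diff.

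Long genes of chromatin regulation were lower in PRC1cKO after Win18446. All 11 genes of the H3K4 and H3K36 methyltransferases had both PRC1cKO libraries below both PRC1ctrl libraries, 6 were called lower, and the median log2 fold change was -1.51. Over all genes 49.3% lay below and 10.9% were called lower, and in the longest protein-coding class 30.6% were called lower. Kmt2c fell from 53.8 and 76.1 TPM to 9.26 and 16.8 TPM (-2.26 ± 0.32, adjusted p = 0.0078, limma), and Setd2, the H3K36 methyltransferase, from 72.4 and 69.7 TPM to 18 and 27.1 TPM (-1.64 ± 0.19, adjusted p = 0.0029). Kmt2a (-2.04, adjusted p = 0.0551) and Kmt2d (-2.21, adjusted p = 0.105) did not pass, and their PRC1cKO replicates were far apart, at 5.16 and 13.1 TPM for Kmt2a and at 12.8 and 38.2 TPM for Kmt2d. Both were called lower with the replicate number as a block (adjusted p = 0.00251 and 0.0368) and in the fit over all 12 libraries. The longest transcripts of these genes had a median length of 10105 bases. After length correction the median was -0.79 and Kmt2c, Setd2 and Ash1l (-1.77 as deposited) remained called. The 11 genes summed to 748 and 860 TPM in PRC1ctrl and to 291 and 387 TPM in PRC1cKO, and WT A_undiff were at 328 and 347 TPM, within the PRC1cKO range. The comparison with WT crosses strain and treatment and was not tested. At 2 mo without treatment, with another library kit, the 11 genes summed to 127 and 170 TPM in PRC1ctrl and to 132 and 158 TPM in PRC1cKO. The interaction was called for 4 of the 11, beside 2.76% of all genes called higher in it and 4.98% lower.

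The CHD remodellers showed the same. All 9 were lower in both PRC1cKO libraries and 6 were called, beside the same 30.6% of long genes, with a median of -1.28, which became -0.65 with 2 calls (Chd2 and Chd3) after length correction, when 6.33% of all genes and 52 of the 748 longest ones were called lower. At 2 mo without treatment the 9 genes summed to 56.0 and 64.4 TPM in PRC1ctrl and to 62.3 and 86.2 TPM in PRC1cKO. The interaction was called for 3 of them. After Win18446, Chd3 fell from 135 and 192 TPM to 35.1 and 53.8 TPM (log2 fold change -1.87). Chd7 (-2.02) was not called without either PRC1ctrl replicate (-2.18 and -1.87, adjusted p = 0.154 and 0.208). The 3 Tet genes, whose products oxidise 5-methylcytosine, were also called lower, though Tet1 was tested through its PRC1ctrl level alone. Tet3 fell from 47.1 and 64.0 TPM to 8.08 and 13.0 TPM (-2.31 ± 0.25, adjusted p = 0.0029, limma) and Tet2 from 6.39 and 8.09 TPM to 0.76 and 1.41 TPM (-1.99), and both stayed called after length correction (-1.58 and -1.34). Tet1 (-1.07) did not stay called with scaling (-0.96), with length correction (-0.20), or without PRC1ctrl replicate 2 (-0.86), PRC1cKO replicate 1 (-0.96, adjusted p = 0.0977) or PRC1cKO replicate 2 (-1.18, adjusted p = 0.0554). The DNA methyltransferase genes in the same list were not called.

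Of 9 tested long noncoding RNAs that stay in the nucleus, 6 were called lower, beside 10.9% of all genes. The median was -1.31, with 7 of the 9 below 0 and 2 above it. With length correction 3 were called, beside 6.33% of all genes. Malat1, an RNA of nuclear speckles, fell from 7.84 and 12.5 TPM to 1.74 and 1.13 TPM (log2 fold change -2.18 ± 0.25, adjusted p = 0.0028, limma). Xist, the RNA of X inactivation, was tested through its PRC1ctrl level alone, which set its direction. It was at 3.70 and 5.59 TPM in PRC1ctrl and at 0.07 and 0.50 TPM in PRC1cKO (-2.14). Both stayed called with scaling (-2.01 and -2.03) and length correction (-1.65 and -1.16), whereas Neat1 (-1.49) and Rian (-1.51) did not pass after length correction (-0.45 and -0.91). By annotation class, the lower calls were most frequent among sense intronic transcripts (30 of 46, 65.2%) and unverified TEC models (150 of 283, 53%). They made up 22.3% of lincRNAs and 27.7% of processed pseudogenes. Over all genes the share was 10.9%.

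Meiotic genes were lower in part. Of 38 tested, 8 (21.1%) were called lower, where 10.9% of all genes were, and none higher, and the median was -0.27. Sycp2, an axial element of the synaptonemal complex, fell from 19.7 and 24.1 TPM to 3.50 and 3.74 TPM (log2 fold change -2.30 ± 0.16, adjusted p = 0.0015, limma), and Shoc1, a crossover factor, from 11.1 and 13.9 TPM to 3.84 and 3.19 TPM (-1.58). Both were called without any single library. Spo11, which cuts DNA to start recombination, was at 5.81 and 6.82 TPM in PRC1ctrl and at 1.61 and 2.23 TPM in PRC1cKO (-1.33), and was not called without PRC1cKO replicate 1 (-1.18, adjusted p = 0.0514). Tex15 fell from 154 and 181 TPM to 66.1 and 74.4 TPM (-1.24) and was not called with length correction (-0.63). With scaling 5 meiotic genes were called lower and 1 higher, beside 7.92% and 2.03% of all genes, and with length correction 3 were lower, namely Sycp2, Shoc1 and Spo11, when 6.33% of all genes were lower, so that the list was then near the background. Sycp3, by contrast, was at 106 and 109 TPM in PRC1ctrl and at 133 and 78.5 TPM in PRC1cKO.

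Genes of later germ cells had the 3 largest decreases among the protein-coding genes named by rule. Prm2, which encodes protamine 2 of the sperm nucleus, was at 35.4 and 29.9 TPM in PRC1ctrl and was listed at 0 in both PRC1cKO libraries (adjusted p = 0.000111, limma). Prm1 was at 32.1 and 36 TPM in PRC1ctrl and at 0 and 0.19 TPM in PRC1cKO (log2 fold change -5.0 ± 0.18), and the transition protein gene Tnp2 was at 22.2 and 21.2 TPM and at 0.24 and 0.29 TPM (-4.16 ± 0.16). Odf1 of the sperm tail fell as well (-2.18), and Tnp1, with 36.8 and 27.8 TPM in PRC1ctrl and 16.7 and 16.6 TPM in PRC1cKO, did not pass the fold threshold (-0.91). In all, 6 of 8 tested spermatid markers were called lower, where 10.9% of all genes were, and these 6 reached the level for testing in PRC1ctrl alone, so that the count could go in 1 direction only. The 10 listed markers summed to 135 and 148 TPM in PRC1ctrl, to 24.3 and 26.4 TPM in PRC1cKO and to 823 and 898 TPM in WT A_undiff. Their part in other decreases was not tested.

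The direction of Pgk2 was fixed by the filter, since it was tested through its PRC1ctrl level alone. Of 9 tested spermatocyte markers 3 were called lower, where 10.9% of all genes were. These were Pgk2 (3.10 and 2.14 TPM to 0.10 and 0.08 TPM, log2 fold change -1.72), Ybx2 (-1.34) and Mybl1 (-1.24), of which Pgk2 and Ybx2 were not called in the fit over all 12 libraries (adjusted p = 0.0747 and 0.168), while Hspa2 and Ccna1 were not lower (0.47 and 0.77). Of 6 erythroid genes 3 reached the level for testing, all through PRC1ctrl alone, and their direction was set by that. Hba-a1 was at 2.34 and 2.30 TPM and Hbb-bs at 3.52 and 3.35 TPM in PRC1ctrl, and both were listed at 0 in both PRC1cKO libraries. Hba-a2 (-1.19) was not called without PRC1cKO replicate 1 (-1.0, adjusted p = 0.0618). None of 8 tested Leydig cell markers was called, although Insl3, the main Leydig hormone, was at 292 and 64.5 TPM in PRC1ctrl and at 52.7 and 13.3 TPM in PRC1cKO. PRC1ctrl replicate 2 lay nearer to PRC1cKO replicate 1 than to its own replicate. With the replicate number as a block Insl3 was called lower (-2.32, adjusted p = 0.00221), and the list summed to 88.5 and 440 TPM in PRC1ctrl and to 27.7 and 89.3 TPM in PRC1cKO.

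The other 2 of the 5 largest decreases were Gm5751, from 22.7 and 24.6 TPM to 0.50 and 1.62 TPM (log2 fold change -3.63), and Snhg11, annotated here as protein-coding, from 15.5 and 19.1 TPM to 0.73 and 1.63 TPM (-3.09). Ribosomal protein genes served as a reference of short, abundant transcripts. None of 79 was called, and their median was 0.22 as deposited and 0.43 with scaling. Of the 79, 74 were above 0. Both PRC1cKO libraries lay above both PRC1ctrl libraries for 53 and below for 2, where 20.1% and 49.3% of all genes did.

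The changes were then read against normal differentiation, in the 14499 genes tested both here and between WT A_diff and A_undiff, 2 comparisons that share no library. Of 159 genes higher in PRC1cKO, 66 (41.5%) were also higher in WT A_diff and 16 (10.1%) were lower there, while 11.0% and 9.44% of all these genes were higher and lower in WT. Seen from the other side, the 66 genes were 4.12% of the 1602 genes higher in WT A_diff. The first share was 40.4% with scaling and 37.1% with length correction. Of 1217 genes lower in PRC1cKO, 114 (9.37%) were lower and 116 (9.53%) higher in WT A_diff, near the shares of all genes.

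The median log2 fold change in PRC1cKO of the genes higher in WT A_diff was 0.01, beside -0.17 for all genes tested in both. Across genes the log2 fold changes of the 2 comparisons correlated at Pearson's r of 0.127 and Spearman's rho of 0.107, and genes are not independent replicates. Most genes of the WT programme thus had no call in the Win18446 libraries, and Kit, Esx1, Dmrtb1, Tbx1, Prss50, Lad1, Epcam and Phlda3 are among those that had one in both.

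**Figure D5:**
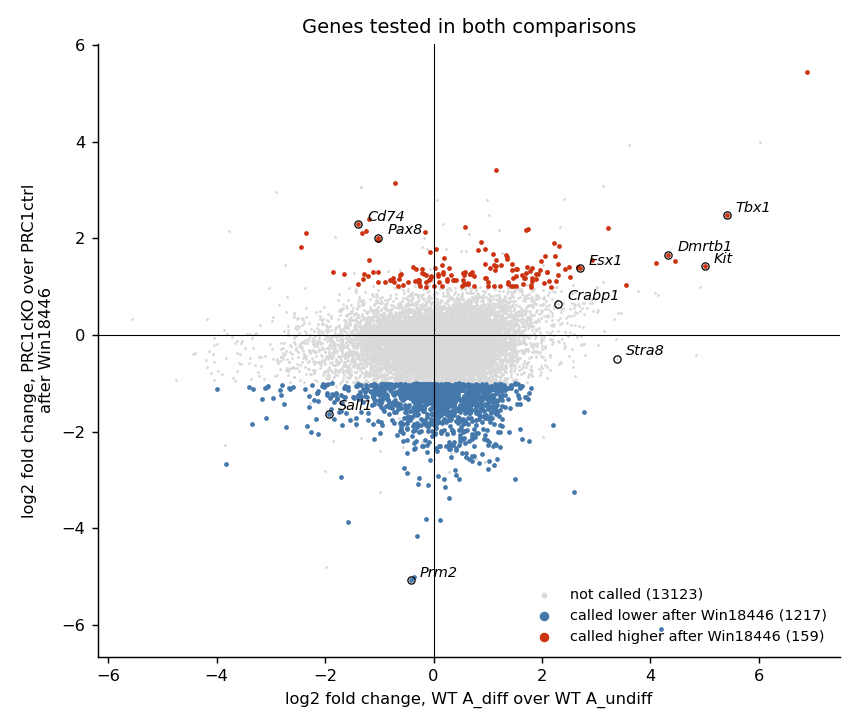
Log2 fold change of PRC1cKO over PRC1ctrl after Win18446 (vertical axis) against that of WT A_diff over WT A_undiff (horizontal axis) for 14499 genes, 1 point per gene, coloured by the call on the vertical axis. Kit, Dmrtb1, Tbx1 and Esx1 lie in the upper right, Cd74 and Pax8 in the upper left, and Stra8 lies to the right just below 0.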

How the data were processed

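RNA-seq values were taken from 1 table of TPM (transcripts per 1e+06) per gene deposited by the authors, 12 libraries in 6 groups of 2. Per the study's methods and the submitters' processing notes, reads were handled with Trim Galore 0.6.6, HISAT2 2.2.1, SAMtools 1.9, HTSeq 1.6.0 and DESeq2 1.28.1, and RSEM 1.3.3 with GRCm38 gave the TPM. The strand setting of RSEM is not given in the sources used here. Of the 55385 identifiers, 55144 are in GENCODE M21 and 54851 have its coordinates, and 27 names had been turned into dates. TPM keeps no read counts, so the depth behind each value is unknown and no counting interval is given. Replicates number 2 per group.

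Genes with at least 1 TPM in at least 2 of the libraries compared were tested as log2(TPM + 1) in limma 3.58.1 (R 4.3.3, trend and robust options), two-sided, with Benjamini-Hochberg adjustment over all tested genes. This scale understates changes of genes near or under 1 TPM. Called genes had a log2 fold change beyond 1 either way and an adjusted p below 0.05. The same fit was made between WT A_diff and A_undiff, and as an interaction of genotype and treatment over the 8 PRC1 libraries. Errors are standard errors of the fit. The fits were tested on simulated data. Alternatives were median-of-ratios scaling and removal of a loess curve (span 0.5) of each library's deviation from the gene mean, both with the rest unchanged. The curve was fitted on the log10 length of each gene's longest transcript in the GENCODE basic set. Other alternatives were a pseudocount of 0.1, no filter, a mean TPM of at least 5, and no trend or robust options. A fit over all 12 libraries, a replicate block, and leaving out each library in turn were also made.

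Named genes were Kit, Esx1, Dmrtb1, Tbx1, Ring1 and Rnf2, the 5 protein-coding genes with the largest log2 fold change in each direction that were also called with scaling, and up to 4 called members of each gene list and direction, or the 2 most abundant members where none was called. Of the other called genes named, Tet1, Xist and Pgk2 reached the level for testing in PRC1ctrl alone and Rhox4b in PRC1cKO alone. Further list members were named after their values were seen. A gene that the rule would name is not reported here. The members and lists were chosen with earlier results of these data known. Promoter windows came from RefSeq GRCm38.p6 and were compared with exons in bedtools 2.31.1. Tables were handled in Python 3.11.15 (pandas 2.3.3, numpy 2.4.6) and plots in matplotlib 3.10.9.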

Additional observations from a re-analysis of the deposited data

Results flagged for a closer look

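For 13 of the genes named above, the interaction term in limma on log2(TPM + 1), which sets the change with genotype after Win18446 against that at 2 mo without treatment, passed the threshold. For most of them this depended on the pseudocount. Treatment and library kit cannot be told apart in any of these. With a pseudocount of 0.1, 4 of the 13 passed, namely Setd2 (-2.36, adjusted p = 0.0407), Tet2 (-4.35, adjusted p = 0.0378), Insl3 (-8.01, adjusted p = 0.0491) and Hba-a1 (-5.86, adjusted p = 0.0246), and the other 9 had adjusted p-values of 0.0545 to 0.403.

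As reported, the log2 difference was 2.12 for Tbx1 (adjusted p = 0.028), 1.57 for Cdx1 (adjusted p = 0.0178), 1.17 for Wnt7b (adjusted p = 0.0309) and 1.54 for Krt7 (adjusted p = 0.0387). All 4 genes were under 1 TPM in every library at 2 mo, where the scale holds their fold changes near 0, and none passed with the smaller pseudocount, with differences of 1.59 for Tbx1, 1.47 for Cdx1, 1.32 for Wnt7b and 1.08 for Krt7. For the spermatid genes Prm1 (3.14, adjusted p = 0.0348) and Tnp2 (3.66, adjusted p = 0.0281), PRC1cKO was under 1 TPM in both settings, so that the fold change was bounded by the PRC1ctrl level, which was 32.1 and 36 TPM for Prm1 after treatment and 280 and 684 TPM at 2 mo. The 2 differences therefore do not measure unequal decreases.

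The interaction was negative for Shoc1 (-2.94, adjusted p = 0.0161), Setd2 (-2.29, adjusted p = 0.0198), Tet3 (-2.48, adjusted p = 0.0218), Tet2 (-2.75, adjusted p = 0.0125) and Xist (-2.20, adjusted p = 0.0176), and at 2 mo their log2 fold changes were 1.36, 0.65, 0.17, 0.75 and 0.06. Xist was at most 0.09 TPM in each library at 2 mo. For Hba-a1 the difference was -2.25 (adjusted p = 0.0073), and for the Leydig hormone gene Insl3, whose replicates were far apart, it was -5.82 (adjusted p = 0.0478). Without either Win18446 PRC1cKO replicate, the interaction called 19 genes higher and 7 or 10 lower over all genes.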

How the results depend on the processing

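None of the 80 named genes called in the comparison changed direction under an alternative in which it was tested, and at a mean TPM of at least 5, 54 kept their call, 1 lost it and the others were not tested. Of these 80, 74 kept their call with median-of-ratios scaling, 67 with length correction, 79 with a pseudocount of 0.1, 77 with no filter and 63 in the fit over all 12 libraries, where the 17 lost calls had adjusted p-values of 0.0515 to 0.216 and included the 4 MHC class II genes, Barx1, Itga7, Rrm2, Tet1, Rhox4b, Gzma, Hba-a2 and Pkp3. Without PRC1ctrl replicate 1, PRC1ctrl replicate 2, PRC1cKO replicate 1 or PRC1cKO replicate 2, the calls kept were 71, 70, 55 and 74. Over all genes, 381 were called higher with a pseudocount of 0.1, 335 with scaling, 104 at a mean TPM of at least 5, 399 with length correction and 414 with length correction and the replicate block, and 125 to 281 with a library left out. Lower genes numbered 851 at a mean TPM of at least 5, 1045 with length correction, 1073 with length correction and the block, and 1040 to 2027 with a library left out. In WT, 972 to 1734 genes were higher and 818 to 1508 lower with a library left out, and the lowest counts came without A_undiff replicate 1. With scaling 1162 genes were higher and 1750 lower there, so that the share of lower calls went from 45.3% to 60.1%. The interaction gave 226 higher and 243 lower genes with a pseudocount of 0.1, 334 and 453 with no filter, 839 and 304 with scaling, and 19 to 825 and 7 to 1575 with a library left out. The cause of these differences was not tested, other than that fewer genes were tested at the higher level.

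With the replicate block the uncalled genes Kmt2a (adjusted p = 0.00251), Kmt2d (0.0368) and Insl3 (0.00221) were called lower, no named gene lost its call, and 223 genes were higher and 1854 lower. Same-numbered libraries deviated together only weakly (correlation 0.122 across genes), and with 2 pairs the numbers were not taken to pair the samples. Genes that were not called changed sign with scaling in Rbbp7 (0.078), Tgfb1 (0.15), Mael (0.20), Dazl (0.034), Clu (0.20), Pecam1 (0.16), Dnmt3b (0.14), Aldh1a2 (0.041), Etv5 (0.014), Nanos2 (0.059), Ret (0.14) and Sycp3 (0.14). With length correction, with or without the block, they were Tgfb1 (0.064), Mael (0.065), Dazl (0.014), Clu (0.077), Pecam1 (0.23), Dnmt3b (0.23), Mki67 (0.25), Etv5 (0.091), Id4 (0.065) and Ret (0.34). With a library left out, the uncalled log2 fold changes that crossed 0 were Acta2 (-0.23 to 0.79), Cd9 (-0.075 to 0.10), Cdh1 (-0.044 to 0.15), Cdkn2a (-0.14 to 0.42), Clu (-0.42 to 0.41), Dnmt3b (-0.18 to 0.043), Id4 (-0.41 to 0.0098), Mael (-0.11 to 0.092), Mki67 (-1.0 to 0.10), Nanos2 (-0.27 to 0.037), Pecam1 (-0.016 to 0.0095), Rbbp7 (-0.28 to 0.018), Ret (-0.18 to 0.056), Sycp3 (-0.45 to 0.31), Tgfb1 (-0.25 to 0.14), mt-Atp8 (-0.76 to 0.13) and mt-Co1 (-0.052 to 0.35). The WT change of Rnf2 was -0.061 to 0.46 with a library left out. The interaction of Esx1 was 0.0065 with scaling and -1.16 to 0.026 with a library left out, and that of Rnf2 was 0.20 with scaling. TPM values hold no depth, so what low counts limit could not be measured.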

Other observations

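Of 56 miRNA precursor models tested, 5 (8.93%) were called higher and 11 (19.6%) lower in PRC1cKO, where 1.27% and 10.9% of all genes were. Mitochondrially encoded respiratory genes (13 tested) and immediate early and heat shock genes that respond to tissue dissociation (16 tested) had no call, with medians of 0.08 and -0.03. Neither had any of 6 peritubular myoid and 5 endothelial markers tested. The 32 Rhox genes summed to 286 and 301 TPM in PRC1ctrl, to 484 and 487 TPM in PRC1cKO and to 294 and 313 TPM in WT A_undiff. In WT A_diff they summed to 359 and 320 TPM. At 2 mo without treatment they summed to 567 and 492 TPM in PRC1ctrl and to 737 and 692 TPM in PRC1cKO. The level in treated PRC1cKO was thus not particular to it. The 9 CHD remodellers summed to 685 and 850 TPM in PRC1ctrl, to 261 and 358 TPM in PRC1cKO and to 359 and 414 TPM in WT A_undiff. PRC1ctrl was above both of these groups, and the sums at 2 mo are given above. These levels cross strain, treatment and, at 2 mo, library kit, and were not tested.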
